A study of Homo sapiens with 3 samples.

Results

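Broad shared loci of FOXM1 chromatin were regions of 600 bp or more in which both anti-FOXM1 ChIP libraries of untreated Huh7 cells had a peak. They were selected on measured values: peaks of the 2 deposited lists that overlapped by at least 1 bp on chromosomes 1 to 22 and X were merged, and the merged length decided membership. This rule kept 1306 of 5357 shared loci (24.4%, exact 95% interval 23.2 to 25.6), and of 13659 merged loci in all. The other 4051 shared loci, under 600 bp, are called narrower here. Lengths, widths, fold enrichments and q-values come from the same peak calls as the rule, so they are given as a description.

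Huh7 is a line of cultured human liver cancer cells. The samples, all untreated, were 2 ChIP libraries pulled down with antibody G-5 against FOXM1, labelled 2 and 3 and called replicate 2 and replicate 3, and 1 input library, not analysed here. Whether the ChIP libraries stem from separate cultures is not given in the sources used here, and all groups of loci below share both of them. With 2 libraries of 1 group no test over samples was possible, so shares carry exact Clopper-Pearson 95% intervals, which cover counting error only.

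FOXM1 belongs to the forkhead family and activates mitotic genes in dividing cells, and its level is often raised in liver cancer. Forkhead proteins bind a short adenine-rich element through a winged-helix domain, and FOXM1 also reaches mitotic promoters through the MuvB complex at a sequence called the CHR. In ChIP-seq a peak marks a stretch where antibody-selected fragments pile up above the local background, and CpG islands are promoter stretches that keep many CpG dinucleotides.

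These 5 promoters from inside broad shared loci are shown as picked examples and do not stand for the group. They were taken from RefSeq on GRCh38.p14, each running from 250 bases before to 50 bases after an annotated start, 5′ to 3′ on the gene's strand, with every CpG in capitals. All 300 bases of each lay inside its locus.

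CEBPA: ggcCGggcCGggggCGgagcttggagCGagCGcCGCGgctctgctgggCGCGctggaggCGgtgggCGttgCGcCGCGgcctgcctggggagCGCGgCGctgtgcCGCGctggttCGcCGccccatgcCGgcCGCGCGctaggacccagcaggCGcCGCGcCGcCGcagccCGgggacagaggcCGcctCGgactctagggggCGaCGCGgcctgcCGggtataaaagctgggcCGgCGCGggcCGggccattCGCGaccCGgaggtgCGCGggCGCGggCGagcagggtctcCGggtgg

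KMT5B: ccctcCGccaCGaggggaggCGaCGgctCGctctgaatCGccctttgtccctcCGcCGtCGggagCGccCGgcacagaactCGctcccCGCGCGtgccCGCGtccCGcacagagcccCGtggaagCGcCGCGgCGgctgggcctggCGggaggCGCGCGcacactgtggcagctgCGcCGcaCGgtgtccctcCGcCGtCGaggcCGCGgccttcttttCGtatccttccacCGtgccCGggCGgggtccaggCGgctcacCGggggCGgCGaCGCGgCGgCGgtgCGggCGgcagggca

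FGFR3: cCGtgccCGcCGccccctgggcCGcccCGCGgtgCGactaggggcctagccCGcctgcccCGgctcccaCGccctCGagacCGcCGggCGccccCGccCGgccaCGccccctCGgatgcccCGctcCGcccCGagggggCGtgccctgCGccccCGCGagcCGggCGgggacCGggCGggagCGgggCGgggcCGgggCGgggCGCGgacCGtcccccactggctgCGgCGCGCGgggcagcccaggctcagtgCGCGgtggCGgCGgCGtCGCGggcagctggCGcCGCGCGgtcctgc

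CTCF: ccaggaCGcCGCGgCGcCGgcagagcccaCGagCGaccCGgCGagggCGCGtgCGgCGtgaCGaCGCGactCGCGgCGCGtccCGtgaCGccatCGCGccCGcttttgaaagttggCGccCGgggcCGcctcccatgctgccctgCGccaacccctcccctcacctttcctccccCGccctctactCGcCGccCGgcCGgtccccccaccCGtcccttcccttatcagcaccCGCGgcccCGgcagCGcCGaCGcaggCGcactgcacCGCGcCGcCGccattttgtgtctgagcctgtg

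SOX12: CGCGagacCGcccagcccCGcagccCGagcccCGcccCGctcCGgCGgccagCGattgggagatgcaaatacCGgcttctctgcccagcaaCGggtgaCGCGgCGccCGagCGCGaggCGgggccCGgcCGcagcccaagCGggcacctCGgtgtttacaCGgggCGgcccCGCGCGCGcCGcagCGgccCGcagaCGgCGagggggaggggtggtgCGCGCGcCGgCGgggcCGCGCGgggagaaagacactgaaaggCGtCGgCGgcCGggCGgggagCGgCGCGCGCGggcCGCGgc

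CEBPA (chr19:33302485-33302784, minus strand) was shown as the promoter in the longest locus, and held 50 CpG dinucleotides. KMT5B (chr11:68213599-68213898, minus strand), FGFR3 (chr4:1793043-1793342, plus strand) and CTCF (chr16:67562276-67562575, plus strand) were shown as starts inside other long loci, with 49, 51 and 46 CpG dinucleotides. SOX12 (chr20:325302-325601, plus strand) was shown because it was the 1 promoter among the 12 long or wide loci extracted that held the forkhead letters TAAACA, read on the reverse strand 98 bases before the start. It held 54 CpG dinucleotides. In CEBPA the letters TATAAA began 30 bases before the start, and in CTCF the CHR letters TTTGAA began 146 bases before it.

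The 1306 loci had a median length of 748 bp (quartiles 663 and 899, highest 2489), against 349 bp in the 4051 narrower loci. Most lay near the lower limit: 477 (36.5%) were under 700 bp, 319 (24.4%) fell between 700 and 800 bp, 312 (23.9%) between 800 and 1000 bp, 172 (13.2%) between 1000 and 1500 bp, and 26 (1.99%) were of 1500 bp or more. There was no gap at 600 bp, with 258 loci of 600 to 649 bp and 287 of 550 to 599 bp. Just inside lay YIF1A, SMAD2 and CIMAP1D, all at 600 bp, with folds of 2.70 and 3.03, 3.40 and 4.54, and 2.84 and 3.20 in replicates 2 and 3. Just outside, all at 599 bp, lay loci at KHSRP, nearest to LTBR and nearest to ACTN4, with folds of 3.95 and 5.12, 3.53 and 3.79, and 4.14 and 3.49.

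A merged length of 600 bp did not usually mean 1 wide peak in each library. A single peak of 600 bp or more was present in both libraries at 255 loci (19.5%, interval 17.4 to 21.8), in 1 library at 728 (55.7%) and in neither at 323 (24.7%). Among the 728, replicate 3 held the wide peak at 511 and replicate 2 at 217. Loci wide in both had a median length of 951 bp, of which both libraries covered 81.7%. Loci wide in neither had a median length of 671 bp, of which both covered 39.6%; their widest peaks had medians of 407 bp in replicate 2 and 471 bp in replicate 3.

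**Figure D1:**
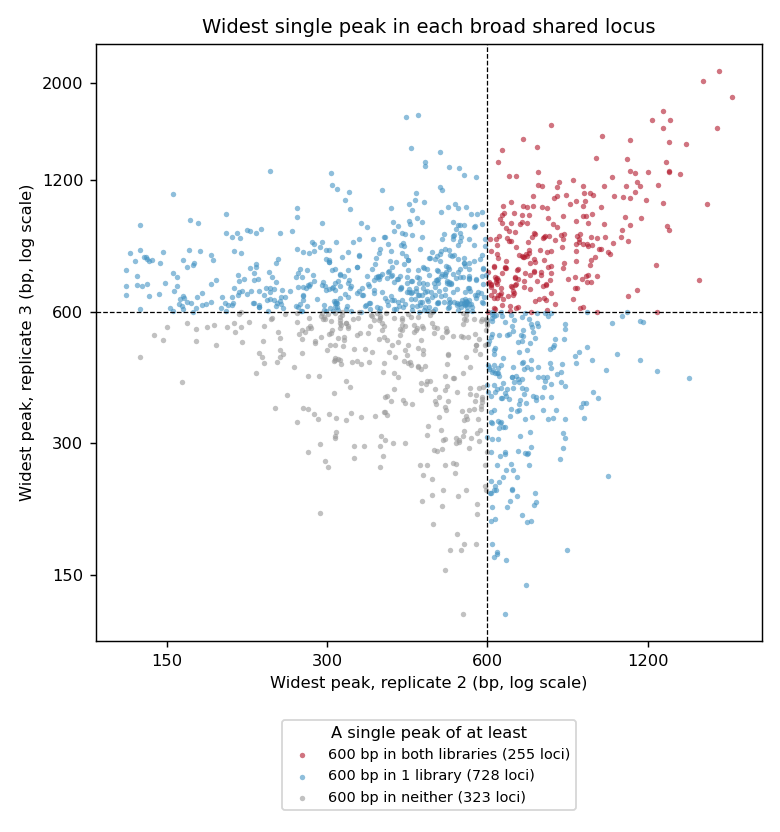
Widest single peak of each broad shared locus in replicate 2 (horizontal axis) and replicate 3 (vertical axis), in bp on log scales, 1 point per locus, with dashed lines at 600 bp. The 255 loci with a wide peak in both libraries fill the upper right, and the 323 with none fill the lower left.

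Broad loci were also less simple inside. At 830 (63.6%) each library had exactly 1 peak, against 3931 of the narrower loci (97.0%). Replicate 2 had 2 peaks at 277 loci and replicate 3 at 228, and the highest number in either was 4. A pair of peaks overlapped by at least 50% of both at 683 loci (52.3%), against 65.6% of the narrower ones. The highest summits of the 2 libraries lay within 100 bp of each other at 428 (32.8%), against 59.3%, and the median gap was 169 bp, against 77 bp. A longer locus leaves more room for such gaps, so they describe these loci and set no contrast.

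Width in one library went with width in the other. Of 472 loci whose widest peak in replicate 2 reached 600 bp, 255 (54.0%, interval 49.4 to 58.6) also reached it in replicate 3, with a median width there of 640.5 bp. Among the 4885 shared loci under 600 bp in replicate 2, 511 (10.5%) reached it in replicate 3 and the median was 298 bp. In the other direction, 255 of 766 loci (33.3%) wide in replicate 3 were wide in replicate 2, with a median of 489 bp, against 217 of 4591 (4.73%) and 250 bp. Wide peaks were also seldom alone: 474 of 479 in replicate 2 (99.0%) and 770 of 816 in replicate 3 (94.4%) had a partner in the other list. For peaks under 600 bp this was 67.6% in replicate 2 and 46.0% in replicate 3. A partner needs an overlap of only 1 bp and a wider peak has more room for it, so these partner shares set no contrast. The deposited lists do not say whether both libraries were called against the same control, and its part in the likeness of the 2 libraries was not tested.

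Enrichment at the summits was moderate. The fold, the authors' linear ratio of scaled fragments to local background, had a median of 4.14 in replicate 2 and of 4.25 in replicate 3 at broad loci, against 3.78 and 3.85 at narrower ones. The −log10 q, the authors' value after correction over all positions, had medians of 5.57 and 5.85, against 3.99 and 4.22. Rebuilt counts of fragments over the summit had medians of 30.5 and 30, over local backgrounds of 5.42 and 5.21. Narrower loci had medians of 26 in both libraries over backgrounds of 5.00 in both.

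The share of shared loci that were broad followed the fragment count. Ordered into 5 equal groups by the mean fragment count of the 2 libraries, 9.43%, 15.7%, 21.5%, 31.6% and 43.8% of loci were broad, from the lowest group to the highest. By local background the same shares ran 18.6%, 22.1%, 26.9%, 24.1% and 30.2%. A peak ends where it no longer passes the caller's threshold, so a higher pile-up of the same shape can be called wider. The part of fragment number in the lengths was not tested.

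The longest locus was the CCAAT/enhancer binding protein gene CEBPA, a liver transcription factor (chr19:33301543-33304031, 2489 bp). Its fold was 8.09 in replicate 2 and 5.60 in replicate 3, on 60 and 44 fragments, with −log10 q of 24.1 and 12.6. Replicate 2 had a peak of 1632 bp and a second beside it, and replicate 3 had 1 peak of 2127 bp. The middle of the summits lay 9 bp inside the gene, and the locus reached 1497 bp upstream and 991 bp downstream of the start. CEBPA was the longest of all and the second of all by the width held in both libraries.

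The related liver factors CEBPD and CEBPB were also broad. CEBPG, a further C/EBP gene of the hepatocyte factor list below, had no broad locus within 1 kb of an end. CEBPD (chr8:47737329-47738944, 1616 bp) had folds of 4.15 and 4.08 on 29 and 27 fragments, with 2 peaks in each library and a widest peak of 936 bp in replicate 2 and 768 bp in replicate 3. CEBPB (chr20:50190358-50191829, 1472 bp) had folds of 4.79 and 3.93 on 40 and 35 fragments. Its widest peaks were 1315 and 920 bp. CEBPD rested on fewer fragments than CEBPA or CEBPB in both libraries, although its locus was longer than that of CEBPB.

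Among the 20 longest loci, 13 had an end of a protein-coding gene within 1 kb of the summit and 16 had a single peak of 600 bp or more in both libraries. NAT8L, the N-acetylaspartate synthetase gene (chr4:2059444-2061488, 2045 bp), lay apart from its promoter window. Its folds were 4.38 and 5.55, the summit was 628 bp downstream of the annotated start, and the locus began 117 bp past that start. NAT8L was among the 24 genes with more than 1 broad locus, counted below, and only this locus of it is described here. FGFR3, a fibroblast growth factor receptor gene (chr4:1792694-1794377, 1684 bp), was centred 9 bp upstream of its start with folds of 5.20 and 4.25. Replicate 2 had 2 peaks there, the wider of 444 bp, while replicate 3 had 1 peak over all 1684 bp.

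CTCF, which encodes the insulator protein (chr16:67561987-67563604, 1618 bp), had folds of 4.51 and 5.66 on 49 and 53 fragments, and its summit lay 198 bp downstream of the start. ZBTB2, a zinc finger repressor gene (chr6:151390041-151391727, 1687 bp), was the most broken of the 20, with 2 peaks in replicate 2 and 4 in replicate 3. Folds there were 4.56 and 4.80 on 32 fragments in each library. SRPK2, a kinase of SR splicing proteins (chr7:105387815-105389434, 1620 bp), had 4 peaks in replicate 2 and 1 peak of 1420 bp in replicate 3. It lay 10446 bp from the nearest end of the gene as annotated, and 10 bp from another annotated start of the same gene.

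Other loci among the 20 lay inside genes, and some of these covered an annotated start. At NCOA2, a nuclear receptor coactivator gene (chr8:70402429-70404124, 1696 bp), folds were 3.83 and 3.02 over backgrounds of 9.68 and 14.0. The nearest coding gene end was 53134 bp away, but no starts were used on chromosome 8, so its distance from a start is unknown here. Inside RAI1 (chr17:17782125-17783793, 1669 bp) the folds were 4.52 and 5.24. SEMA4C, a semaphorin gene (chr2:96868696-96870317, 1622 bp), had 1 peak in each library, of 1620 bp and 1580 bp, with summits 568 bp apart. That locus covered an annotated SEMA4C start, 609 bp upstream of the summit midpoint. CTBP1, a corepressor gene (chr4:1247943-1249613, 1671 bp), had folds of 4.65 and 4.66, and its locus covered an annotated start 717 bp upstream of the summit midpoint.

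**Figure D2:**
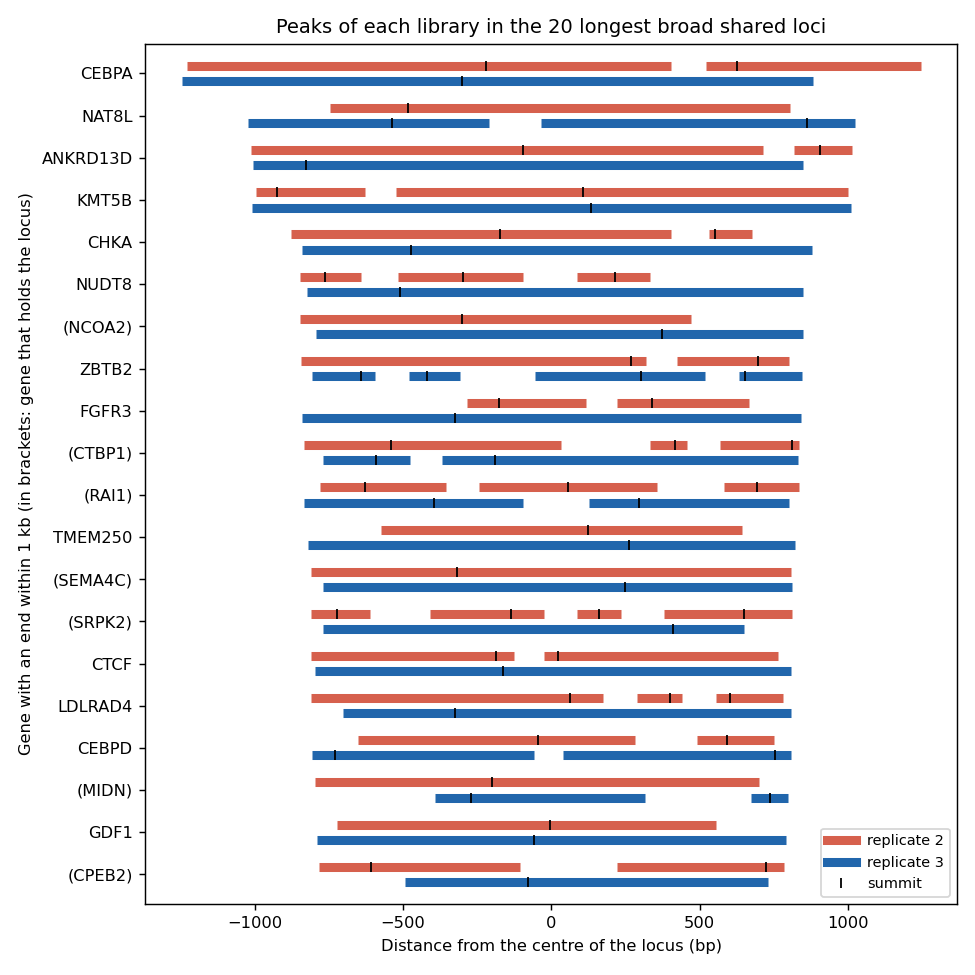
Peaks of replicate 2 (red) and replicate 3 (blue) in the 20 longest broad shared loci, in bp from the centre of each locus, with summits as black ticks and the longest locus on top. Many loci are 1 peak in one library and several in the other, such as SRPK2 with 4 peaks in replicate 2 and 1 in replicate 3.

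None of the 10 loci ranked highest by the smaller of their 2 folds was among the 20 longest, and they measured 608 to 1283 bp. So few picks out of 1306 loci would seldom overlap in any case, so this sets no contrast between length and height. Median folds in replicates 2 and 3 were 4.07 and 4.225 at broad loci under 700 bp. At those of 1500 bp or more they were 4.49 and 4.53. KMT2A, a histone H3 lysine 4 methyltransferase gene (835 bp), led with 7.83 in replicate 2 and 8.09 in replicate 3. Next came the locus at the splicing factor gene PUF60 and the polarity gene SCRIB (1249 bp), with 7.21 and 6.47. FAM229A and TSSK3 shared a locus (chr1:32361247-32362529) that was a wide peak in both libraries, of 1283 and 1062 bp, with summits 2 bp apart and folds of 6.53 and 5.81. PYGO2, whose product works with beta-catenin, and SHC1, which links growth factor receptors to RAS, shared chr1:154961483-154962433, with folds of 7.84 and 5.67.

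By the width held in both libraries, ANKRD13D came first (chr11:67288505-67290531), with widest peaks of 1727 and 1854 bp. Its folds were 4.21 and 3.70, close to the broad median in replicate 2 and below it in replicate 3, on 72 and 84 fragments over backgrounds of 13.7 and 19.0. SOX12 (chr20:325279-326633), a SOX transcription factor gene, had 1 peak in each library, of 1299 and 1319 bp, folds of 3.98 and 3.8, and backgrounds of 9.70 and 10.0. NOL4L on the same chromosome had peaks of 1415 and 1447 bp and folds of 5.10 and 5.70. VGLL4, a TEAD cofactor gene, had peaks of 1314 and 1464 bp and folds of 3.88 and 4.07.

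Genes were not used by the rule, so positions can be compared. A gene end within 1 kb of the summit midpoint was found at 968 broad loci (74.1%, interval 71.7 to 76.5), against 2737 narrower loci (67.6%, interval 66.1 to 69.0). Among broad loci this share did not rise with length. It was 75.47% under 700 bp, 75.55% at 700 to 800 bp and 73.4% at 800 to 1000 bp. At 1000 to 1500 bp it was 69.8%, and it was 69.2% of the 26 loci of 1500 bp or more. Broad loci lay outside genes and away from their ends at 48 of 1306 (3.68%, interval 2.72 to 4.84), against 426 of 4051 (10.5%, interval 9.59 to 11.5). Inside genes but away from ends the shares were 22.2% and 21.9%, with overlapping intervals. Ends of several genes lay in reach at 137 broad loci (10.5%, interval 8.88 to 12.3), against 9.65% (interval 8.76 to 10.6), so the intervals overlapped there too.

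The gene-end share moved with fragments as well. In the highest of the 5 fragment groups it was 74.4% of 469 broad loci (interval 70.2 to 78.3), against 64.0% of 603 narrower loci (interval 60.0 to 67.9). In the other 4 groups, from low to high, it was 65.4%, 71.4%, 73.5% and 78.1% of broad loci, against 63.9%, 68.7%, 68.5% and 72.9% of narrower ones, with overlapping intervals in each. The highest group runs from 32.5 to 178.5 mean fragments, and broad and narrower loci were not matched within it.

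Of the 338 broad loci away from ends of protein-coding genes, 57 (16.9%) lay at the end of a long non-coding RNA gene. Starts annotated inside genes accounted for more: leaving out chromosome 8, for which no starts were used, 156 of 325 such loci (48.0%, interval 42.4 to 53.6) lay within 1 kb of a protein-coding start. Among narrower loci it was 401 of 1265 (31.7%, interval 29.1 to 34.3). PRRC2B is an example (chr9:131393729-131394821, folds of 6.53 and 5.67), 20459 bp from the nearest end of the gene and 24 bp from an annotated start. ZFHX3, a homeobox and zinc finger gene, is another (chr16:73058287-73059015, folds of 3.52 and 3.38), 275843 bp from the nearest end and 293 bp from a start.

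The other 4 of the 5 loci farthest from a coding gene end differed in fragments and background. The farthest (chr22:12693414-12694036), 2834455 bp from OR11H1, had folds of 4.51 and 4.21 on 68 and 57 fragments over backgrounds of 12 and 11. A locus 186170 bp from FAM240C on chromosome 2 had folds of 4.28 and 4.59 on 19 and 20 fragments. One inside AGAP1 had folds of 3.42 and 5.83 on 19 and 26 fragments, the second over a background of 3.05. A locus 159499 bp from GRK3 on chromosome 22 had folds of 4.27 and 4.82 on 21 and 24 fragments.

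At starts, broad loci leaned downstream. With chromosome 8 left out, 888 of 1248 (71.2%, interval 68.5 to 73.7) had a protein-coding start within 1 kb, against 2508 of 3894 narrower loci (64.4%, interval 62.9 to 65.9). Their summit midpoint lay a median of 90 bp downstream of the start, and downstream at 66.7% of loci (interval 63.5 to 69.8). Narrower loci had a median of 61 bp and a share of 64.1% (interval 62.2 to 66.0), so the lean was of like size in both. The broad loci reached a median of 515 bp downstream and 253 bp upstream, against 255 bp and 110 bp, as greater length requires. Divergent starts of 2 coding genes lay in reach at 3.69% of broad loci, against 4.34%, with overlapping intervals.

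**Figure D3:**
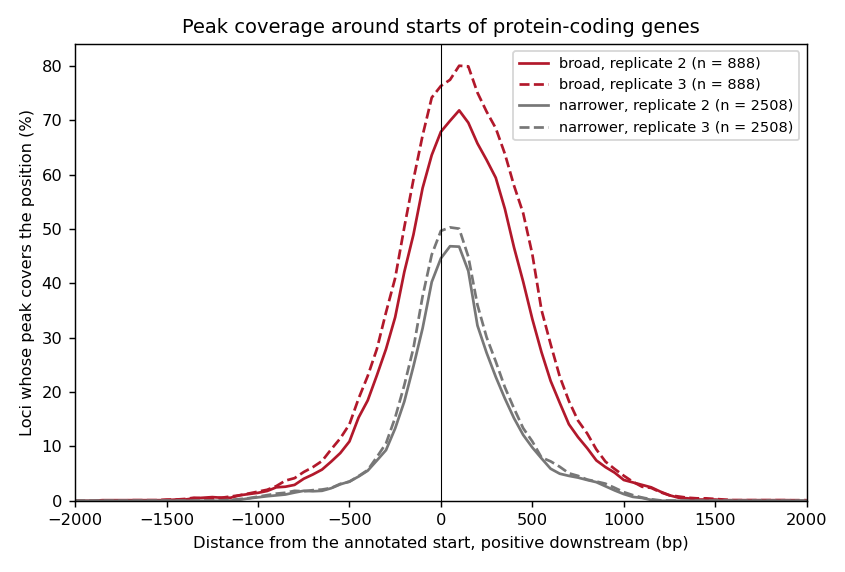
Percent of loci whose peak covered each position around a protein-coding start, in bp with downstream positive, for 888 broad loci (red) and 2508 narrower loci (grey), in replicate 2 (solid) and replicate 3 (dashed). At 500 bp downstream broad loci were covered at 33.4% and 45.4%, against 9.81% and 10.9%. At 500 bp upstream they were covered at 10.9% and 14.1%, against 3.55% and 3.51%.

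Sequence was not used by the rule either. Promoters were grouped by gene. A gene with a start within 1 kb of a broad locus counted with all its annotated promoters, also those away from the locus. Promoters with a broad, a narrower or no shared locus are meant in this sense below. The 22131 promoters belong to 15811 genes. Intervals over promoters count each promoter as independent, so they can be too narrow. The ratio of observed to expected CpG had a median of 0.878 over 1509 promoters with a broad shared locus (interval of the median 0.864 to 0.888), against 0.843 over 3710 promoters with a narrower one (interval 0.836 to 0.851). Promoters with no shared locus, 16912 in number, had a median of 0.683, and all 22131 had 0.738. The median GC content was 73.0% with a broad locus, 69.5% with a narrower one and 60.3% with none. Above a ratio of 0.6, the usual limit for a CpG island, lay 80.2% of promoters with a broad locus (interval 78.2 to 82.2), against 78.8% with a narrower one (interval 77.5 to 80.1) and 57.0% with none. Base composition can change how well fragments amplify, and its part here was not tested.

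Forkhead letters were found in few of these promoters. TAAACA, on either strand, was found in 6.30% of promoters with a broad locus (interval 5.12 to 7.64), against 6.90% with a narrower one, 10.4% with none and 9.53% of all promoters of the same length. The longer GTAAACA, which contains TAAACA, was found in 2.78%, against 2.35%, 2.97% and 2.85% of all. The CHR letters TTTGAA were found in 8.48%, against 8.30%, 13.7% and 12.4% of all. Letters rich in G and C went the other way: the GC box GGGCGG was found in 74.8%, against 72.4%, 51.1% and 56.3% of all. Base composition bears on such shares, its part was not tested, and no site is called from these letters. Only the promoter windows, from 250 bases before to 50 after each start, were searched. The loci reached beyond them and their own sequence was not searched, so these shares do not give what the loci hold.

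For each of the 12 sets of letters searched, the intervals of promoters with a broad and with a narrower locus overlapped. CCAAT was found in 28.3% of promoters with a broad locus, against 30.1% with a narrower one, 36.2% with none and 34.6% of all. The ETS letters CCGGAA were found in 19.4%, against 21.8%, 21.2% and 21.2% of all. The E-box CACGTG was found in 10.5% (interval 8.97 to 12.1), against 9.19% (interval 8.28 to 10.2), 7.96% and 8.34% of all. TATAAA, which CEBPA holds, was found in 5.24%, against 5.90%, 10.6% and 9.46% of all. The CRE letters TGACGTCA were found in 2.32%, against 2.56%, 2.19% and 2.26% of all. Its core TGACG, which the whole CRE contains, was found in 26.8%, against 28.9%, 27.7% and 27.9% of all. The AP-1 letters TGANTCA were found in 4.18%, against 4.99%, 6.58% and 6.15% of all, and the YY1 letters AAGATGG in 4.37%, against 5.61%, 6.29% and 6.05%.

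Over all 19970 protein-coding genes, 1084 (5.43%) had a broad shared locus within 1 kb of an end and 3821 (19.1%) had any shared locus, so 28.4% of genes with a shared locus had a broad one (interval 26.9 to 29.8). Of the 1084 genes, 24 had more than 1 broad locus. ID1, an inhibitor of basic helix-loop-helix factors and a target of BMP signalling, had 2. The first (chr20:31605163-31606283, 1121 bp) had folds of 5.60 and 4.23 on 78 and 67 fragments. The second, 688 bp long, had folds of 3.32 and 3.58 and overlapped the hairpin of MIR3193. The 16 gene lists below are read against the 5.43% and the 28.4%.

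Wnt, Notch, Hippo and TGF-beta genes had the highest share, 14 of 63 (22.2%, interval 12.7 to 34.5). A shared locus of any length was present at 34 of them, of which the 14 are 41.2% (interval 24.6 to 59.3). CTNNB1, which encodes beta-catenin (1330 bp), had folds of 5.16 and 4.69 with no single peak of 600 bp: the widest were 472 and 599 bp. SMAD3, a TGF-beta effector gene (1306 bp), had folds of 4.70 and 3.14 and peaks of 1137 and 1244 bp. SKIL, a SMAD corepressor gene (1083 bp), had folds of 4.78 and 4.38. The others were ID1, PYGO2, DVL1, SKI, NOTCH1, DVL3, HES4, FZD5, TEAD3, TGFBR2 and SMAD2.

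Chromatin enzymes and subunits followed with 14 of 79 (17.7%, interval 10.0 to 27.9), which is 38.9% of the 36 with any shared locus (interval 23.1 to 56.5). SETD2, a histone H3 lysine 36 methyltransferase gene (1186 bp), had folds of 4.22 and 3.88 and 2 peaks in each library. KAT2B, an acetyltransferase gene (994 bp), had folds of 3.32 and 3.51 and was wide in both, with peaks of 994 and 950 bp. EZH2, the Polycomb methyltransferase gene (919 bp), had folds of 4.30 and 4.11 but no peak wider than 378 bp in replicate 2 or 264 bp in replicate 3. CHD7, a remodeller gene (893 bp), had folds of 3.90 and 5.24. KMT2A, described above, was the shortest of these 5.

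Growth factor receptors, adaptors and kinases had 10 of 59 (16.9%, interval 8.44 to 29.0), which is 29.4% of the 34 with any shared locus (interval 15.1 to 47.5). EGFR (chr7:55018847-55020348, 1502 bp), the epidermal growth factor receptor gene, had folds of 4.47 and 4.50 on 41 and 40 fragments, with 2 peaks in each library. FGFR1 (1163 bp), a fibroblast growth factor receptor gene, had folds of 4.56 in both libraries. FGFR3 and SHC1 are described above.

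Immediate early and stress factors had 8 of 49 (16.3%, interval 7.32 to 29.7), which is 40.0% of the 20 with any shared locus (interval 19.1 to 63.9). In each of these 4 lists the share among members with a shared locus had an interval that held the 28.4% of all such genes. MAFK (937 bp) had folds of 4.61 and 4.75, KLF2 (922 bp) had 4.80 and 3.60, and JUND (898 bp), an AP-1 subunit gene, had 4.97 and 5.80. DUSP1, a MAP kinase phosphatase gene (916 bp), had 3.13 and 4.51. NFE2L2, the oxidative stress regulator gene (906 bp), had 3.15 and 3.96 with a peak over all 906 bp in replicate 3.

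Hepatocyte transcription factors had 4 of 28 (14.3%, interval 4.03 to 32.7), an interval that holds the 5.43%. These were CEBPA, CEBPB and CEBPD, but not CEBPG, and PPARGC1A (617 bp, folds of 3.81 and 2.09), a coactivator gene of gluconeogenesis. Only 6 of the 28 had any shared locus. Hepatocyte products and metabolism, such as albumin and the apolipoproteins, had 0 of 42 (upper limit 8.41%), with a shared locus at 5. The list of the G2 and M phases, for which FOXM1 is best known, had 3 of 60 (5.00%, interval 1.04 to 13.9), close to the 5.43%. TACC3, a spindle gene (1008 bp), had folds of 4.58 and 4.36, STMN1 (749 bp) had 3.74 and 2.62, and FAM83D (631 bp) had 4.32 and 4.36. TMEM129 shared the TACC3 locus and had the nearest end, at 244 bp. The TACC3 start lay 936 bp upstream of the summit midpoint.

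The G1 and S phase list had 4 of 52 (7.69%, interval 2.14 to 18.5). CCNE1, which encodes cyclin E1 (825 bp), had folds of 3.92 and 5.47, CDC25A (683 bp) had 4.09 and 4.11, and PCNA, the replication clamp gene (624 bp), had 3.62 and 2.82. CDS2 shared the PCNA locus. TFDP1 (696 bp) had 4.95 and 4.59. Glycolysis, cholesterol and lipid synthesis had 5 of 38 (13.2%, interval 4.41 to 28.1): PFKL (1162 bp; 5.76 and 4.81), INSIG1 (772 bp; 4.20 and 3.93), PFKFB3, PKM and FASN. Developmental factors had 6 of 53 (11.3%, interval 4.27 to 23), with SOX12, the forkhead genes FOXO1, FOXO3 and FOXP4, SIX5 and TGIF2, while FOXM1 itself had none. FOXO1 (789 bp) had folds of 5.03 and 3.01, with a peak of 141 bp in replicate 2 and 789 bp in replicate 3. A second broad locus inside FOXO1 (chr13:40664418-40665428, 1011 bp) lay 1570 bp from the gene end, out of reach of the count. It had folds of 4.98 and 3.62 and peaks of 586 and 1011 bp.

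RNA binding and splicing had 6 of 58 (10.3%, interval 3.89 to 21.2), led in length by PUF60. Ribosomal proteins had 4 of 56 (7.14%, interval 1.98 to 17.3), and RPL7 (1286 bp; folds of 3.88 and 4.11) shared its locus with RDH10. The p53 target list had 2 of 26 (7.69%, interval 0.946 to 25.1), GDF15 (739 bp; 5.66 and 5.42) and TP53INP1. Heat shock and chaperones had 1 of 25 (4%, interval 0.101 to 20.4), HSF1, whose locus BOP1 shared. Blood and immune cell markers, which a Huh7 culture should lack, had 0 of 33 (upper limit 10.6%), with no shared locus of any length. Neuronal markers had 0 of 28 (upper limit 12.3%), with a shared locus at 5.

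**Figure D4:**
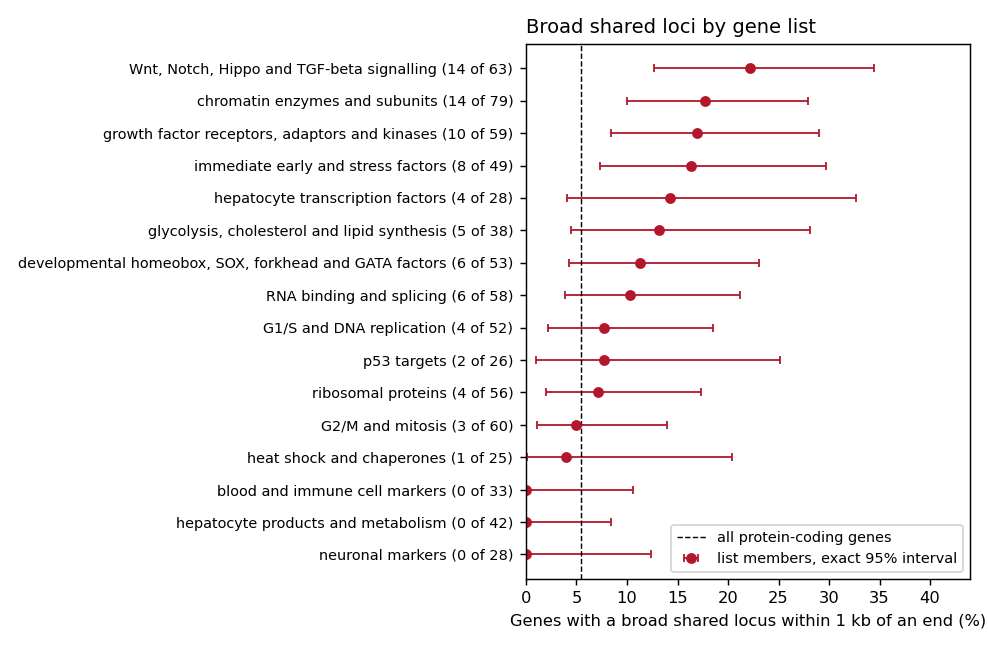
Percent of the members of each gene list with a broad shared locus within 1 kb of an end, with exact 95% intervals, and the 5.43% of all protein-coding genes as a dashed line. The intervals of the top 4 lists, from 22.2% to 16.3%, lie wholly above the line, and 40.8 to 57.6% of the members of these lists had a shared locus of any length, against 19.1% of all genes.

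Broad loci were spread over all chromosomes compared. Chromosome 20 had 88 of 278 shared loci broad (31.7%, interval 26.2 to 37.5), and 14.3% of its protein-coding genes had a broad locus, the highest gene share of the 23 chromosomes. Chromosome 11 had 95 of 313 (30.4%, interval 25.3 to 35.8). At the other end, chromosome 10 had 28 of 160 (17.5%, interval 11.9 to 24.3) and X had 6 of 41 (14.6%, interval 5.57 to 29.2). Chromosome 21 had the highest share, 13 of 34, but on few loci (38.2%, interval 22.2 to 56.4).

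**Figure D5:**
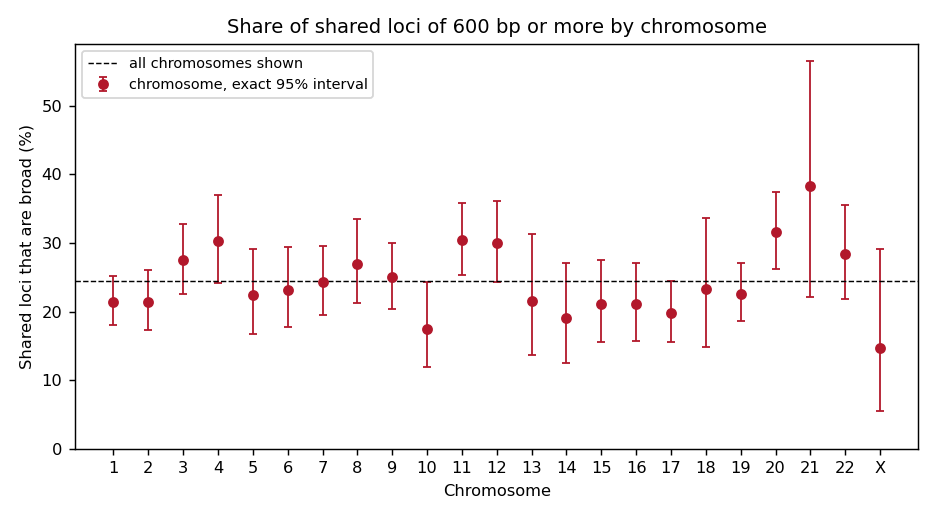
Percent of shared loci that were broad on each chromosome, with exact 95% intervals, and the 24.4% of all as a dashed line. Chromosomes 11 and 20 lie above the line with intervals that do not reach it, and chromosome 10 lies below it likewise.

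On chromosome 11 the broad loci gathered between 65 and 70 Mb, a stretch singled out after its values were seen. There 54 of 127 shared loci were broad (42.5%, interval 33.8 to 51.6), against 1252 of 5230 elsewhere (23.9%, interval 22.8 to 25.1). A single peak of 600 bp or more was present in both libraries at 51.9% of the 54, against 18.1% of broad loci elsewhere. The median local background of shared loci was 15 in replicate 2 and 14.9 in replicate 3, against 5.04 and 5.00 elsewhere. On chromosome 20 it was 7 in both.

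The members there among the 20 longest rested on many fragments over high backgrounds, with folds on both sides of the medians of all broad loci. KMT5B, a histone H4 lysine 20 methyltransferase gene (chr11:68212582-68214598, 2017 bp), had folds of 3.98 and 5.35 on 88 and 85 fragments over backgrounds of 18 and 13. CHKA, a choline kinase gene (1759 bp), had folds of 4.04 and 4.56 on 75 and 70 fragments over 15 and 12.6. NUDT8 (1697 bp) had folds of 2.81 and 3.27 on 65 and 66 fragments over 19.0 and 16.8. With ANKRD13D these were 4 of the 20 longest loci. The part of the high background in their length was not tested.

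Hairpins of microRNA genes overlapped 12 broad loci (0.919%, interval 0.476 to 1.60), against 19 narrower loci (0.469%, interval 0.283 to 0.732). They included MIR3188 at JUND, MIR1281 at EP300, MIR3960 at CDK9 and MIR1908 at FADS2. The intervals overlapped, and a longer locus has more room for such an overlap, so these shares set no contrast. All 12 loci but that of MIR4479, which was nearest to TRAF2, had a protein-coding gene end within 1 kb.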

How the data were processed

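The authors deposited, for each ChIP library of Huh7 cells, a peak list and a summit list on GRCh38. The tools named in the submitters' processing notes are CASAVA 1.4, BWA, and MACS2 in version 2.2.7.1, with no role or order given; filters, duplicate handling and the control library are not given in the sources used here. Peaks were deposited per library, not on pooled reads. The deposited fold is a linear ratio at the summit with a pseudocount of 1, the deposited −log10 p and −log10 q belong to the same position, the deposited summit offset is in bp, and the deposited score was not used. Listed peaks had a −log10 q of at least 1.32 in replicate 2 and 1.31 in replicate 3. A missing peak therefore says only that none was listed at a q of 0.05 under the caller's settings.

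Peaks on chromosomes 1 to 22 and X (8230 in replicate 2, 11457 in replicate 3, with 41 and 45 elsewhere left out) were merged at an overlap of at least 1 bp, which gave the same 1306 broad loci with bedtools 2.31.1. The highest peak of each library gave fold, q and fragments, and the midpoint of their summits gave the position. Fragments and local background were rebuilt from fold and −log10 p as a Poisson upper tail, with 100% of peaks rebuilt within 0.001 at scales of 0.848 in replicate 2 and 0.869 in replicate 3. Merging and rebuilding were tested on simulated data. Library totals are unknown from these lists, and medians of 26 and 24 fragments per peak in replicates 2 and 3 limit the precision.

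Gene ends came from a RefSeq gene table of GRCh38.p14, with either end counted since it gives no strand. Starts and sequences came from RefSeq promoters of that build, which covered 15811 of 19256 protein-coding genes off chromosome 8, with a start for 83.6% of genes with a broad locus and 83.6% with a narrower one alone. All 749 entries of the 16 lists matched. A locus bears the protein-coding genes with an end within 1 kb, or else the nearest. The rule named the 20 longest loci, the 10 of highest lower fold, the 10 widest in both libraries, the 5 farthest from genes, the 3 nearest to 600 bp on each side, up to 5 members of each list by length and up to 6 promoters. Not every locus it named is reported. The remaining list members, the microRNA genes, the second ID1 locus and the second FOXO1 locus were added after their values were seen. Members, lists and rules were chosen with earlier results of these data known. Alternatives were other length limits, stricter q and overlap rules, other windows and each library alone. Python 3.11.15, numpy 2.4.6, pandas 2.3.3, SciPy 1.17.1 and matplotlib 3.10.9 were used.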

Additional observations from a re-analysis of the deposited data

How the results depend on the processing

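The gene-end share stayed within its interval under 8 settings and left it under 7. The number was 510 at 800 bp, 198 at 1000 bp, 548 with a −log10 q of at least 5 in both libraries, 683 with a reciprocal overlap of 50%, 556 with summits within 100 bp and 255 with a single peak of 600 bp in each library. The percent of genes was 2.10, 0.786, 2.34, 2.75, 2.28 and 1.03 under the same settings. With 1 library left out, single peaks of 600 bp numbered 479 to 816, at 2.02 to 3.38% of genes, with 73.9 to 74.6% of peaks at a gene end, 9.44 to 11.9% at ends of several genes and a CpG ratio of 0.878 to 0.883. The gene-end share was 69.7% at 1000 bp, 71.4% with a single wide peak in each library, 61.6% in a window of 500 bp, 87.8% in one of 5 kb, 79.8% for the whole interval, 79.5% for ends of all gene types and 71.2% for starts alone. Ends of several genes were at 8.20% with a reciprocal overlap of 50%, 5.67% in 500 bp, 23.7% in 5 kb and 12.9% for the whole interval. A wide peak in both libraries was at 13.2% of loci of 500 bp or more, 38.2% at 800 bp, 53.5% at 1000 bp, 33.4% with the stricter q and 35.6% with the reciprocal overlap; it has no value where the setting fixes it or leaves 1 library. The CpG ratio was 0.890 at 1000 bp. Fewer loci follow from each stricter rule, and the cause of the other changes was not tested. Without chromosome 11 from 65 to 70 Mb, chosen after seeing the data, 1252 loci remained, 74.0% at a gene end. No paired analysis was possible because both ChIP libraries belong to 1 group. A median of 30 fragments per summit limits what widths can tell.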
